A study of Mus musculus with 12 samples.

Results

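Genes of the proteasome and of the enzymes that attach and remove ubiquitin were followed in the cerebellum of mice with and without an expanded ataxin-7 repeat. The 99 genes were all those whose names start with Psma, Psmb, Psmc, Psmd, Psme, Psmf, Psmg, Ube2 or Uchl, or with Usp and a digit, leaving out Usp22, among 7667 named genes with a deposited value. They comprised 28 subunits of the proteasome particle, 9 proteasome activators, inhibitors and assembly chaperones, 24 Ube2 genes and 37 Usp and Uchl genes. The remaining gene, Usp6nl, shares the prefix but encodes a GTPase-activating protein and no deubiquitinase, and its value was 13 in every condition. All 99 passed the minimum value of 5, and 94 were at 10 or more in all 4 conditions. Every row of the table reached 10 in some condition, and family members without a row, such as Psmb5, Psmb8, Psmb9 and Psme2, were not analysed here.

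The study profiled fxSCA7 92Q mice at 29 and 12 weeks of age. These mice are a model of spinocerebellar ataxia type 7 and carry an ataxin-7 repeat of 92 CAG. Wild-type littermates with a repeat of normal length were profiled at the same ages. Each of the 4 conditions had 3 RNA libraries and each library pooled the cerebella of 3 mice. The construct of the allele and the strain and sex of the mice were not stated in the labels. In the deposited table each gene has 1 whole-number score for each condition, in which the libraries were already combined. Its depth is unknown and it carries no error, so no test between conditions was possible. Higher and lower are therefore used below of the printed scores and say nothing of the spread between mice.

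All 4 condition columns had a median of 22. All 10 Purkinje cell markers and all 10 granule neuron markers looked for had a value in this tissue labelled as cerebellum. Because the scores are rounded, the log2 ratio of 2 scores near 10 is known only to within 0.13, near 22 to within 0.063 and near 60 to within 0.024. A difference of 2 or more units is larger than rounding alone can give. The pools differed in ways besides genotype and age. Xist was 25 in 92Q against 63 in wild type at 29 weeks and 30 against 66 at 12 weeks, and the Y-linked Eif2s3y was 15 in 92Q against 6 in wild type at 29 weeks and 12 in 92Q against a value listed at 0 in wild type at 12 weeks, so genotype and the sexes of the pooled mice cannot be told apart. The Y-linked Ddx3y was 5 in wild type at 29 weeks and listed at 0 at 12 weeks. Within wild type, age and sex can therefore not be told apart either. The numbers in the library titles also fell in separate ranges at the 2 ages, and what they stand for is not given. The summed score of 6 measured choroid plexus markers was 1697 in 92Q against 567 in wild type at 29 weeks and 55 in 92Q against 446 in wild type at 12 weeks. The sums rest mostly on Ttr, at 1403 against 445 and 6 against 336, and Enpp2, at 238 against 101 and 45 against 92. The others, Kl, Sostdc1, Kcnj13 and Clic6, reached 10 only in 92Q at 29 weeks, so that their direction there was set by the row minimum. In such bulk tissue, fewer cells of a type and less RNA per cell cannot be told apart.

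Proteins are marked for destruction by chains of ubiquitin. Conjugating enzymes, encoded by the Ube2 genes, carry the activated ubiquitin and pass it, with a ligase, to the substrate, while deubiquitinases of the Usp and Uchl families trim or remove it. The proteasome degrades the marked protein: its 20S core is a barrel of alpha and beta rings with the proteolytic sites inside, and its 19S regulatory particle binds, deubiquitinates and unfolds substrates. In polyglutamine diseases such as spinocerebellar ataxia type 7, the expanded protein collects in ubiquitin-positive inclusions in neurons.

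The subunits of the proteasome particle differed in opposite directions at the 2 ages. At 29 weeks 24 of 28 subunits were higher in 92Q than in wild type and 1 was lower, with a median log2 ratio of 0.10, where 49.5% of all 7666 genes compared were higher and 26.1% lower (median 0.00). At 12 weeks 0 of 28 were higher and 23 were lower in 92Q, with a median of -0.066, where 32.1% of all genes were higher and 36.7% lower (median 0.00). The differences were small: 8 subunits were at least 1.1-fold higher and 0 lower at 29 weeks (15% and 8.47% of all genes), 0 were 1.1-fold higher and 6 lower at 12 weeks (4.5% and 8.02% of all genes), and Psmb10 was the only subunit that was 1.2-fold apart by genotype at either age. Differences larger than rounding were found for 19 subunits at 29 weeks, all of them higher in 92Q (27.1% of all genes were higher and 14.5% lower by as much), and for 16 at 12 weeks, all of them lower in 92Q (11.3% of all genes were higher and 18.7% lower by as much). Upper quartile scaling shifts the 12-week ratios upward, since the upper quartile was 42 in 12-week wild type and 41 in the other conditions, and gave 9 higher and 19 lower with a median of -0.033, against a median of 0.032 over all genes. At 29 weeks scaling by median ratios gave 23 higher and 5 lower with a median of 0.068, against a median of -0.025 over all genes. Genes with high scores as a whole leaned the same way, more weakly. Of the 2001 genes with a mean score of 40 or more 53.7% had a higher and 37.2% a lower score in 92Q at 29 weeks (median 0.024), beside 15 and 0 of the 16 subunits above that mean (median 0.079). At 12 weeks 36.7% of those genes were higher and 52.9% lower (median -0.016), beside 0 and 15 of the 16 subunits (median -0.074). Some cell type markers had the same directions at the 2 ages. Of 8 oligodendrocyte markers 6 were above wild type and 2 below it in 92Q at 29 weeks (median 0.19), and 1 was above and 6 below it at 12 weeks (median -0.074), with sums of 4162 in 92Q against 3904 in wild type at 29 weeks and 3642 against 3875 at 12 weeks. The choroid plexus sums given above were also higher in 92Q at 29 weeks and lower at 12 weeks. Of 7 astrocyte and Bergmann glia markers 4 were higher and 3 lower at 29 weeks and 2 higher and 5 lower at 12 weeks, with sums of 2779 in 92Q against 2162 in wild type at 29 weeks and 2246 against 2288 at 12 weeks. In that list Gfap was 235 in 92Q against 95 in wild type at 29 weeks and 87 against 88 at 12 weeks, and Apoe was 1552 against 1062 and 1094 against 1105. Slc1a3, Gdf10 and Aldh1l1 were the 3 lower at 29 weeks, at 323 against 361, 106 against 130 and 24 against 25. The 2 measured blood markers had sums of 157 against 111 and 117 against 116, so their sum was not lower in 92Q at 12 weeks. Neuron markers did not have both of these directions. Of 10 granule neuron markers 1 was higher and 8 lower in 92Q at 29 weeks (median -0.12). At 12 weeks 8 of them were higher and 2 lower (median 0.075). All 10 Purkinje cell markers were lower in 92Q at both ages. The part of these cells in the subunit values was not tested.

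**Figure D1:**
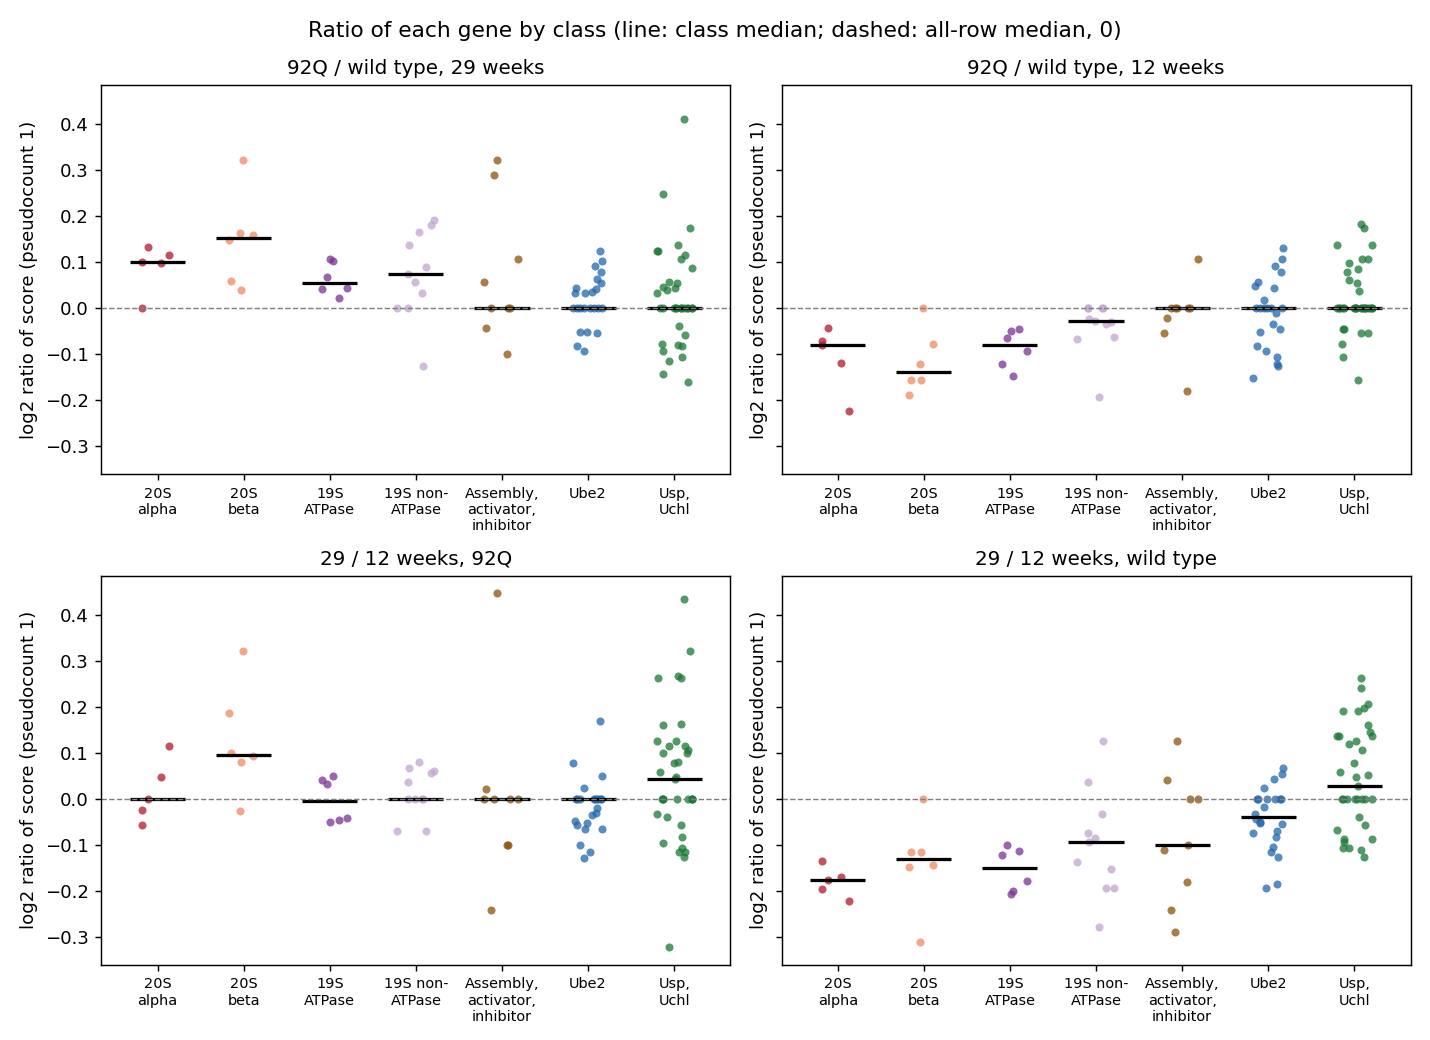
Log2 ratio of the deposited score of each gene (points, pseudocount 1) by class, for 92Q over wild type at 29 and 12 weeks (top) and for 29 over 12 weeks in 92Q and in wild type (bottom); black lines are class medians and the dashed line is the median of all genes, 0. Psmb10 is drawn among the 20S beta subunits. The 20S and 19S subunits lie mostly above 0 for the genotype ratio at 29 weeks, mostly below it at 12 weeks and lowest in wild type with age, while the Ube2 medians stay between -0.04 and 0.

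The subunit levels lay further apart in the wild-type columns than in the 92Q columns. Their summed score was 1376 in wild type at 12 weeks and 1242 at 29 weeks, and 1298 and 1322 in 92Q. The summed score of all genes was also highest in 12-week and lowest in 29-week wild type. It was 333581 in wild type at 12 weeks and 322446 at 29 weeks, and 326547 and 325833 in 92Q. Relative to each gene's mean over the 4 conditions, the 28 subunits had a median log2 level of 0.016 in 92Q at 29 weeks, -0.076 in wild type at 29 weeks, -0.0014 in 92Q at 12 weeks and 0.082 in wild type at 12 weeks. Wild type at 12 weeks alone was the highest condition for 18 of 28 subunits, against 21.7% of all genes, and wild type at 29 weeks alone was the lowest for 18 of 28, against 21.2% of all genes. Both held for 12 subunits, against 7.53% of all genes, and for 4 of 24 Ube2 genes and 1 of 37 deubiquitinase genes. Higher values tie less often, so the same was counted over the genes with a mean of 40 or more. There 12-week wild type was alone the highest for 12 of 16 subunits, against 36% of these genes, and 29-week wild type alone the lowest for 13 of 16, against 31.4%. Among the 37 deubiquitinase genes the single highest condition was most often 92Q at 29 weeks, in 10 genes or 27%. This is near the 26.2% of all genes, among which it was also the most frequent single highest condition.

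With age, 25 of 28 subunits were lower at 29 than at 12 weeks in wild type and 2 were higher (median -0.14), where 45.9% of all genes were lower and 32.5% higher, and 23 of the 25 differed by more than rounding, where 29% of all genes were lower and 16.2% higher by as much. Of the 16 subunits with a mean of 40 or more all were lower, where 63.5% of genes above that mean were lower and 29.5% higher. In 92Q 15 were higher and 8 lower at 29 weeks (median 0.035), where 42.4% of all genes were higher and 35.4% lower. Of the 16 with a mean of 40 or more 8 were higher and 6 lower, against 40.3% and 51.4% of genes above that mean. In wild type, age also goes with the sexes of the pooled mice, as given above, and these cannot be told apart. The genotype comparisons and the age comparisons share these columns, so they are not separate results. The 2 genotype ratios share no column, and their difference, 29 weeks minus 12 weeks, was above 0 for 26 of 28 subunits (median 0.17), against 50.9% of all genes (median 0.0040) and 57.6% of genes with a mean of 40 or more. In 21 of 28 subunits 92Q was both higher at 29 weeks and lower at 12 weeks, as in 17.5% of all genes and in 27.7% of genes with a mean of 40 or more.

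**Figure D2:**
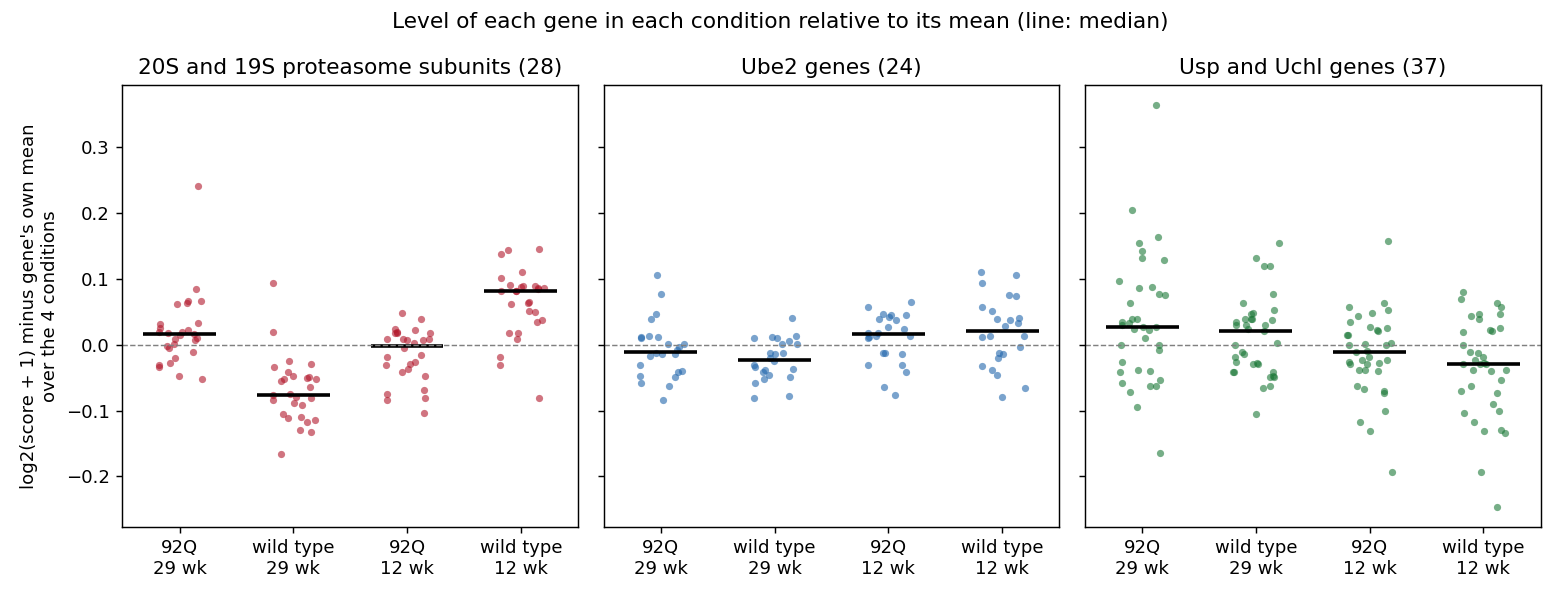
Level of each gene in each of the 4 conditions as log2(score + 1) minus its own mean over the conditions, for the 28 proteasome particle subunits, the 24 Ube2 genes and the 37 Usp and Uchl genes; points are genes and lines are medians. The proteasome median is lowest in wild type at 29 weeks (-0.076) and highest in wild type at 12 weeks (0.082), and the medians of the other classes stay within 0.03 of 0.

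Among the 5 alpha subunits of the 20S core, which form its outer rings and gate, all were lower in 92Q at 12 weeks and 4 were higher at 29 weeks. Psma7 was 58 in 92Q against 54 in wild type at 29 weeks and 59 against 62 at 12 weeks, and Psma6 was 59 against 55 and 57 against 62. Psma2 was 33 in 92Q against 30 in wild type at 29 weeks and 33 against 34 at 12 weeks. Psma1 was 50 in both genotypes at 29 weeks and 52 in 92Q against 55 in wild type at 12 weeks. Psma4 had the lowest 12-week ratio of all 28 subunits, at 11 in 92Q against 13 in wild type (-0.22 as a log2 ratio), and was 12 against 11 at 29 weeks, values at which rounding matters. In wild type all 5 were lower with age, by a median of -0.18.

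The beta subunits form the inner rings, and 2 measured ones carry constitutive proteolytic sites. Psmb7, the trypsin-like subunit, had a score of 55 in 92Q against 49 in wild type at 29 weeks (0.16 as a log2 ratio) and 56 against 61 at 12 weeks (-0.12). It had the lowest ratio of 29 to 12 weeks in wild type of all subunits (-0.31). Psmb6, the caspase-like subunit, had a score of 40 in 92Q against 36 in wild type at 29 weeks (0.15) and 35 against 40 at 12 weeks (-0.19). Psmb4, a structural subunit, had a score of 95 in 92Q against 85 in wild type at 29 weeks and 89 against 94 at 12 weeks. Psmb1 was 73 in 92Q against 71 in wild type at 29 weeks and 69 against 77 at 12 weeks, and Psmb2 had the same values except for 74 in 92Q at 29 weeks. These 5 had median ratios of 0.15 at 29 weeks and -0.16 at 12 weeks, and in all of them both differences exceeded rounding. Psmb7 lies on chromosome 2 at 38588036 to 38644087 on the minus strand (mm10, GENCODE M21), and 11.8% of its exonic bases overlap Nek6 on the other strand, whose reads cannot be told apart without a stranded count.

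Psmc1 to Psmc6 encode the 6 ATPases of the ring that unfolds substrates and threads them into the core. All 6 were higher in 92Q at 29 weeks (median 0.055) and lower at 12 weeks (median -0.079), and all 6 were lower with age in wild type (median -0.15). Psmc5 was 101 in 92Q against 98 in wild type at 29 weeks and 104 against 111 at 12 weeks. Psmc3 was 57 in 92Q against 53 in wild type at 29 weeks and 55 against 61 at 12 weeks, and Psmc4 was 61 against 60 and 63 against 65. For the other 3 the 29-week values were 43 in 92Q against 41 in wild type for Psmc2, 34 against 33 for Psmc6 and 27 against 25 for Psmc1. Their 12-week values were 42 against 44, 33 against 36 and 28 against 29.

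The 11 non-ATPase subunits of the 19S particle were less uniform. In 92Q 8 of them were above wild type and 1 below it at 29 weeks (median 0.074), and 0 above and 7 below it at 12 weeks (median -0.028). Psmd14, the metalloprotease that cuts ubiquitin chains from substrates, was 23 in 92Q against 20 in wild type at 29 weeks (0.19) and 22 against 23 at 12 weeks. Psmd4, a ubiquitin receptor, was 50 against 44 at 29 weeks (0.18) and 48 against 49 at 12 weeks. Psmd6, a subunit of the lid, was 36 in 92Q against 32 in wild type at 29 weeks (0.17) and 34 against 39 at 12 weeks (-0.19). Psmd3 was 65 in 92Q against 59 in wild type at 29 weeks and 62 against 63 at 12 weeks, and Psmd8 was 81 against 76 and 85 against 87. For these 5 subunits the lowest of the 4 values was that of wild type at 29 weeks.

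The other 6 non-ATPase subunits had nearly equal values by genotype. Psmd7, Psmd1 and Psmd2 were 51, 44 and 19 in 92Q at 29 weeks against 49, 43 and 18 in wild type, and at 12 weeks they were 51, 44 and 19 against 52, 44 and 19. Psmd13 was 19 in both genotypes at 29 weeks and 20 in 92Q against 21 in wild type at 12 weeks. Psmd12 was 38 in both at 29 weeks and 37 in both at 12 weeks. Psmd11 was the 1 subunit that was lower in 92Q at 29 weeks, at 10 in 92Q against 11 in wild type, a difference within rounding, and was 10 in both at 12 weeks. Psmd11 and Psmd12 were the 2 subunits that were not lower with age in wild type, apart from the inducible subunit Psmb10, which was equal.

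**Figure D3:**
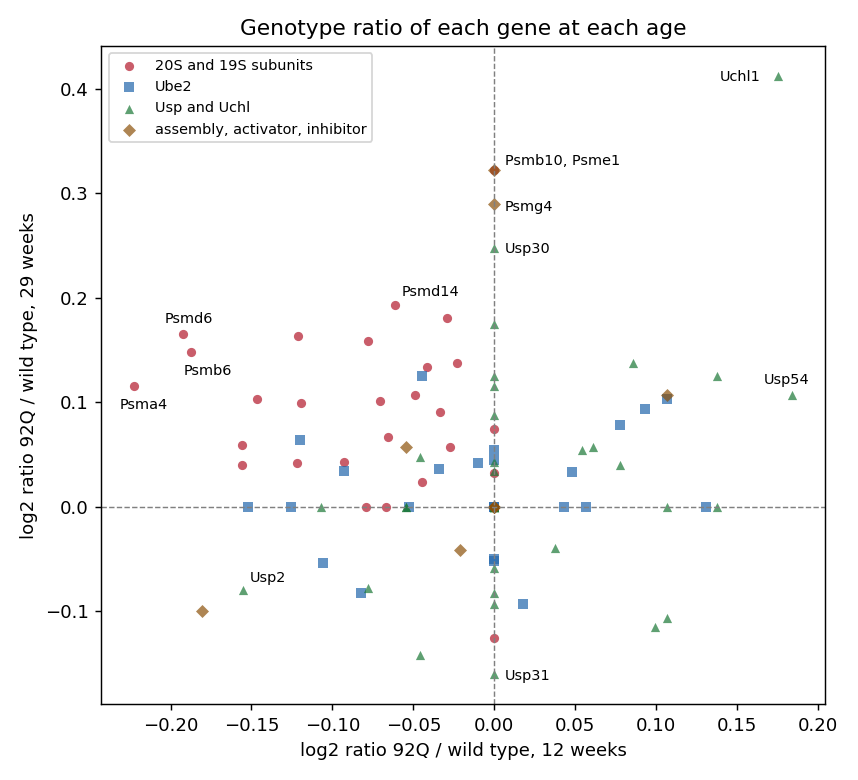
Log2 ratio of 92Q over wild type at 12 weeks (x axis) and at 29 weeks (y axis) for 98 genes, Usp6nl at 0 on both axes left out; each point is a gene, coloured by class, and points with equal values overlie one another. Of the 28 proteasome subunits 21 lie in the upper left area (higher at 29 weeks, lower at 12 weeks), Psmb10 and Psme1 share 1 point at 0.32, and Uchl1 lies alone at the upper right.

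Promoters are shown because most subunits had genotype ratios on the same side of 0. NFE2L1, a transcription factor of mammalian proteasome genes, binds antioxidant response elements with the core TGACNNNGC. The Nfe2l1 gene itself was 97 in both genotypes at 29 weeks and 91 in 92Q against 95 in wild type at 12 weeks. RefSeq promoter entries (GRCm38.p6, the assembly of mm10) were matched by symbol for 80 of the 99 genes, in 93 windows, and the 250 bases before each start were searched on both strands. The core stood in 3 of 24 windows of the 20S and 19S subunits, 12.5% of them, against 10.2% of all 32851 windows in the table. It stood in 10.3% of the Ube2 windows and in 16.7% of the Usp and Uchl windows. The motif CCAAT stood in 33.3% of the subunit windows against 33.8% of all, and GGGCGG, the GC box, in 58.3% against 32.7%, and in 79.3% and 70% of the Ube2 and the Usp and Uchl windows. Matches of different motifs may share letters and were counted separately. The 3 subunit windows with TGACNNNGC are printed first, with the match on either strand in capitals, followed by those of the 2 constitutive subunits with the highest 29-week genotype ratios, in which capitals mark CCAAT or its reverse complement. All are 5' to 3' on the strand of the gene. The Psmb6 window is chr11:70525107-70525356 on the plus strand, that of Psmc6 chr14:45329574-45329823 plus, that of Psmd12 chr11:107479278-107479527 plus, that of Psmd14 chr2:61711444-61711693 plus and that of Psmd4 chr3:95042615-95042864 minus.
Psmb6: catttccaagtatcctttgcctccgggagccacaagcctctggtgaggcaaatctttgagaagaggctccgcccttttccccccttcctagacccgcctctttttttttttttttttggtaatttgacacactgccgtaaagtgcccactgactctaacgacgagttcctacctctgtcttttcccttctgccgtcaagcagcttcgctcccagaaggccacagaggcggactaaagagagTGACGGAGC
Psmc6: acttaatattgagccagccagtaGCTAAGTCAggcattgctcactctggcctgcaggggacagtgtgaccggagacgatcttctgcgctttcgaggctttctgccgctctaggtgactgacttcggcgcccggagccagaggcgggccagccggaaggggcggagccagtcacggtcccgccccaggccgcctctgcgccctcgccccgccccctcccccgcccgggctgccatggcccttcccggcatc
Psmd12: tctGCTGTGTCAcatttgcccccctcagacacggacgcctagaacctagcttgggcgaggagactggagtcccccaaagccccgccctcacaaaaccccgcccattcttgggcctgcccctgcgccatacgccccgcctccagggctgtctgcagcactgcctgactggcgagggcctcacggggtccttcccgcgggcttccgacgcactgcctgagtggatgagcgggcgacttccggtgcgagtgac
Psmd14: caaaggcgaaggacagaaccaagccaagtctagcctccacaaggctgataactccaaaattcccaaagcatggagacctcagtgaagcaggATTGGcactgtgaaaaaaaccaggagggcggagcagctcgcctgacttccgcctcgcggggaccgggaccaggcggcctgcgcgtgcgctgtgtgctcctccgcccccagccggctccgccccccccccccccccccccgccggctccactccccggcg
Psmd4: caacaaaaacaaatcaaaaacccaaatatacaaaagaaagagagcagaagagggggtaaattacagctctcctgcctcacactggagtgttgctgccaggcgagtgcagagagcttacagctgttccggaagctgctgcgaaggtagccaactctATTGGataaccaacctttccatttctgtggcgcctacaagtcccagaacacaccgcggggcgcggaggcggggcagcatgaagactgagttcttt
Of the 3 genes with the core, Psmb6 was 4 units higher in 92Q at 29 weeks and 5 units lower at 12 weeks, Psmc6 was 1 unit higher at 29 weeks and 3 units lower at 12 weeks, and Psmd12 was equal by genotype at both ages.

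The inducible proteasome genes followed another pattern. Psmb10, the subunit that replaces Psmb7 in the immunoproteasome of immune and interferon-treated cells, was 14 in 92Q against 11 in wild type at 29 weeks (0.32 as a log2 ratio) and 11 in both genotypes at 12 weeks. Psme1, a subunit of the interferon-inducible 11S activator, was likewise 14 against 11 at 29 weeks and 10 in both at 12 weeks. In both genes the 92Q value at 29 weeks was the highest of 4 and stood apart from the other 3 by at least 3 units, beyond what rounding gives. The 92Q difference with age was 0.32 for Psmb10 and 0.45 for Psme1. Psmb10 lies on chromosome 8 at 105935735 to 105938444 on the minus strand and Psme1 on chromosome 14 at 55578123 to 55581529 on the plus strand.

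Markers of microglia and of interferon response and antigen presentation were also higher in 92Q at 29 weeks. All 14 measured of 16 microglia and macrophage markers were higher in 92Q at 29 weeks, with a summed score of 466 in 92Q against 211 in wild type at 29 weeks and 181 against 177 at 12 weeks. For Lyz2, Mpeg1, Cd68, Cd52, Trem2 and Cx3cr1 no condition except 29-week 92Q had a score as high as 10. The row minimum therefore set the direction of these genes at 29 weeks. The remaining markers were at 10 or more in 29-week wild type as well, such as C1qa at 63 in 92Q against 26. Of the interferon and antigen presentation list 6 of 16 had a value, and 5 were higher and 1 lower at 29 weeks, with sums of 349 against 296 at 29 weeks and 267 against 257 at 12 weeks. B2m, the light chain of MHC class I, was 236 in 92Q against 204 in wild type at 29 weeks. Cd74, the invariant chain of MHC class II, was 15 against 6, and it too reached 10 only in 92Q at 29 weeks. The part of these cells in the values of Psmb10 and Psme1 was not tested.

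The other activators and the assembly factors differed little. Psme3, the nuclear activator PA28 gamma, was 67 in 92Q against 69 in wild type at 29 weeks and 66 against 67 at 12 weeks, and Psme4, the activator PA200, was 13 in both genotypes at 29 weeks and 14 in both at 12 weeks. Psmf1, a proteasome inhibitor, was 13 in 92Q against 12 in wild type at both ages. Of the chaperones that build the core, Psmg4 was 10 in 92Q against 8 in wild type at 29 weeks (0.29 as a log2 ratio) and 10 in both at 12 weeks. Psmg2 was 13 against 14 at 29 weeks and 14 against 16 at 12 weeks, and Psmg1 was 10 in both at 29 weeks and 12 in both at 12 weeks. Psmd5, a chaperone of the ATPase ring, was 25 in 92Q against 24 in wild type at 29 weeks and 25 against 26 at 12 weeks, and Psmd9, another, was 11 in every condition. The 4 chaperones other than Psmd9 were each 2 or more units lower at 29 than at 12 weeks in wild type, as were 29% of all genes.

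The 24 Ube2 genes showed no common shift by genotype. At 29 weeks 11 were above and 5 below wild type in 92Q, and at 12 weeks 8 were above and 10 below. The median was 0.00 at both ages. After upper quartile scaling the 12-week split was 15 higher and 8 lower (median 0.034, against 0.032 over all genes). After scaling by median ratios the 29-week split was 11 higher and 13 lower (median -0.0255, against -0.0251 over all genes). In the deposited scores the shares of all genes were 49.5% higher and 26.1% lower at 29 weeks and 32.1% and 36.7% at 12 weeks. At 29 weeks 0 of 24 were 1.1-fold higher and 0 lower, against 15% and 8.47% of all genes. The highest 29-week ratios were those of Ube2e2, at 35 in 92Q against 32 in wild type (0.13), and Ube2o, an enzyme that also acts as a ligase, at 28 against 26 (0.10). The lowest was that of Ube2ql1, at 74 against 79 (-0.093). With age in wild type 14 were lower and 4 higher (median -0.039), against 45.9% lower and 32.5% higher over all genes. Upper quartile scaling gave 12 lower and 12 higher (median -0.0047, against 0.032 over all genes). In the deposited scores the lowest ratios were those of Ube2e3, at 41 at 29 weeks against 47 at 12 weeks (-0.19), and Ube2a, an X-linked homologue of yeast Rad6, at 21 against 24 (-0.18). In 92Q 11 were lower with age and 4 higher (median 0.00), against 35.4% and 42.4% of all genes. There Ube2ql1 was 74 at 29 weeks against 81 at 12 weeks (-0.13) and Ube2e2 was 35 against 31 (0.17).

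Several Ube2 enzymes have a set role. Ube2m, which carries NEDD8 rather than ubiquitin to cullin ligases, was 138 in 92Q against 134 in wild type at 29 weeks and 141 against 142 at 12 weeks, and Ube2f, the second NEDD8 enzyme, was 10 in both at 29 weeks and 10 against 11 at 12 weeks. Ube2n, which builds lysine 63 chains, was 26 in both genotypes at 29 weeks and 26 against 27 at 12 weeks, and Ube2k, which builds lysine 48 chains, was 26 against 27 and 27 in both. Ube2l3, a partner of the HECT and RBR ligases, was 87 in 92Q against 85 in wild type at 29 weeks and 90 against 87 at 12 weeks. It shares 28.6% of its exonic bases with Ydjc on the other strand. The enzymes of endoplasmic reticulum degradation differed by no more than 2 units by genotype: Ube2j1 was 60 in both at 29 weeks and 59 in both at 12 weeks, Ube2g1 was 21 in both and 22 against 20, and Ube2g2 was 18 in both and 17 against 19. Ube2b, the other Rad6 homologue, was 77 in 92Q against 80 in wild type at 29 weeks and 78 against 84 at 12 weeks (-0.11). Ube2d1, Ube2d2a and Ube2d3, a subfamily that works with many ligases, were 49, 18 and 33 in 92Q at 29 weeks against 49, 17 and 33 in wild type, and at 12 weeks 51, 18 and 33 against 49, 17 and 32. Ube2e1 was 15 in 92Q against 14 in wild type at both ages, and Ube2w was 16 against 17 at both. Ube2q1 was 27 in 92Q against 28 in wild type at 29 weeks and 29 in both at 12 weeks, and Ube2q2 was 11 in both and 12 in both. The other 3 genes of the family, Ube2h, Ube2r2 and Ube2z, ranged from 25 to 42 and differed by genotype by at most 1 unit at either age.

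Of the 37 deubiquitinase genes, Uchl1 stood apart. Uchl1, a ubiquitin hydrolase that is among the most abundant proteins of neurons, was 176 in 92Q against 132 in wild type at 29 weeks (0.41 as a log2 ratio, rounding range 0.40 to 0.42) and 130 against 115 at 12 weeks (0.18). It had the highest 29-week genotype ratio of all 99 genes. With age it was higher in both genotypes, by 0.43 in 92Q and by 0.20 in wild type, so that 29-week 92Q had the highest of its 4 values and 12-week wild type the lowest. Its genotype ratio stayed between 0.38 and 0.41 at 29 weeks under the 3 scalings tried. Uchl1 lies on chromosome 5 at 66676091 to 66687234 on the plus strand, and 18.1% of its exonic bases overlap Uchl1os on the other strand, whose reads cannot be told apart without a stranded count. In the same comparison all 10 Purkinje cell markers were lower in 92Q, with sums of 3858 against 6068 at 29 weeks and 5520 against 7115 at 12 weeks. Granule neuron markers had sums of 2291 against 2509 and 2855 against 2737. The cell type behind the Uchl1 values was not tested.

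The remaining deubiquitinases were divided by genotype. With Uchl1, 15 of the 37 had a higher and 10 a lower score in 92Q than in wild type at 29 weeks, and 12 were higher and 7 lower at 12 weeks, with a median of 0.00 at both ages. Over all genes 49.5% were higher and 26.1% lower at 29 weeks, and 32.1% and 36.7% at 12 weeks. Upper quartile scaling gave 30 higher and 7 lower at 12 weeks (median 0.033, against 0.032 over all genes), and scaling by median ratios gave 15 higher and 22 lower at 29 weeks (median -0.026, against -0.025), because the 12 genes equal in the deposited values then move together. Usp30, a deubiquitinase of the mitochondrial outer membrane that counters mitophagy, was 18 in 92Q against 15 in wild type at 29 weeks (0.25) and 16 in both at 12 weeks. Usp11 was 34 against 30 at 29 weeks (0.18) and 27 in both at 12 weeks. It lies on chromosome X, as do Ube2a and Usp9x, and the pools differed in Xist. Usp9x was 14 in 92Q against 15 in wild type at 29 weeks and 13 in both at 12 weeks. At the low end, Usp31 was 16 in 92Q against 18 in wild type at 29 weeks (-0.16), Usp3, a histone deubiquitinase, was 28 against 31 (-0.14) and Usp28 was 11 against 12. At 12 weeks the highest ratio was that of Usp54, at 24 in 92Q against 21 in wild type (0.18), and Usp38 was 10 against 9. The lowest at 12 weeks was that of Usp2, at 43 against 48 (-0.16), while Usp12 was 12 against 13 and Usp15 was 17 against 18. A further 15 Usp genes, with scores between 9 and 43, differed by genotype by at most 1 unit at 29 weeks and 2 units at 12 weeks.

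Of the deubiquitinases that dock on the proteasome, neither was higher in 92Q at 29 weeks, unlike the intrinsic subunit Psmd14. Usp14 was 27 in both genotypes at 29 weeks and 25 in 92Q against 26 in wild type at 12 weeks, and Uchl5 was 10 in both genotypes at 29 weeks and 11 in both at 12 weeks. Usp14 shares 26% of its exonic bases with Thoc1 on the other strand. Usp5, which takes apart free ubiquitin chains, was 54 in 92Q against 49 in wild type at 29 weeks (0.14) and 51 against 48 at 12 weeks (0.086). Usp7, which stabilizes MDM2 and p53, was 33 against 32 at 29 weeks and 32 in both at 12 weeks. Usp39, a splicing factor that lacks a working active site, was 16 against 17 and 17 in both.

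With age 19 of the 37 deubiquitinase genes were higher and 10 lower in 92Q (median 0.043), against 42.4% and 35.4% of all genes. In wild type 19 were higher and 10 lower (median 0.029), against 32.5% and 45.9% of all genes. Upper quartile scaling gave 27 higher and 10 lower in wild type (median 0.063, against 0.032 over all genes). In wild type Usp53 was 11 at 29 weeks against 9 at 12 weeks (0.26), Usp54 was 25 against 21 (0.24), and Usp36, a nucleolar deubiquitinase, was 14 against 12 (0.21). In 92Q Usp11 was 34 at 29 weeks against 27 at 12 weeks (0.32), and Usp28 had the lowest ratio, at 11 against 14 (-0.32). The next lowest included Usp19, at 35 against 38 in 92Q and 36 against 37 in wild type, and in wild type Usp47 was 24 at 29 weeks against 26 at 12 weeks. Usp2, a rhythmically expressed gene under the circadian clock in mouse tissues, was 52 at 29 weeks against 43 at 12 weeks in 92Q (0.27) and 55 against 48 in wild type (0.19). The clock genes Per1 and Per2 were 34 and 16 at 29 weeks against 23 and 10 at 12 weeks in 92Q, and 43 and 22 against 26 and 10 in wild type. Of 7 clock genes 5 were higher and 2 lower with age in 92Q, and 6 higher and 1 lower in wild type. Arntl was lower in both, at 11 against 16 in 92Q and 13 against 17 in wild type, and Nr1d1 was 108 against 124 in 92Q and 120 against 113 in wild type. The hour of tissue collection is not given in the sources used here, and its part in the Usp2 values was not tested.

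**Figure D4:**
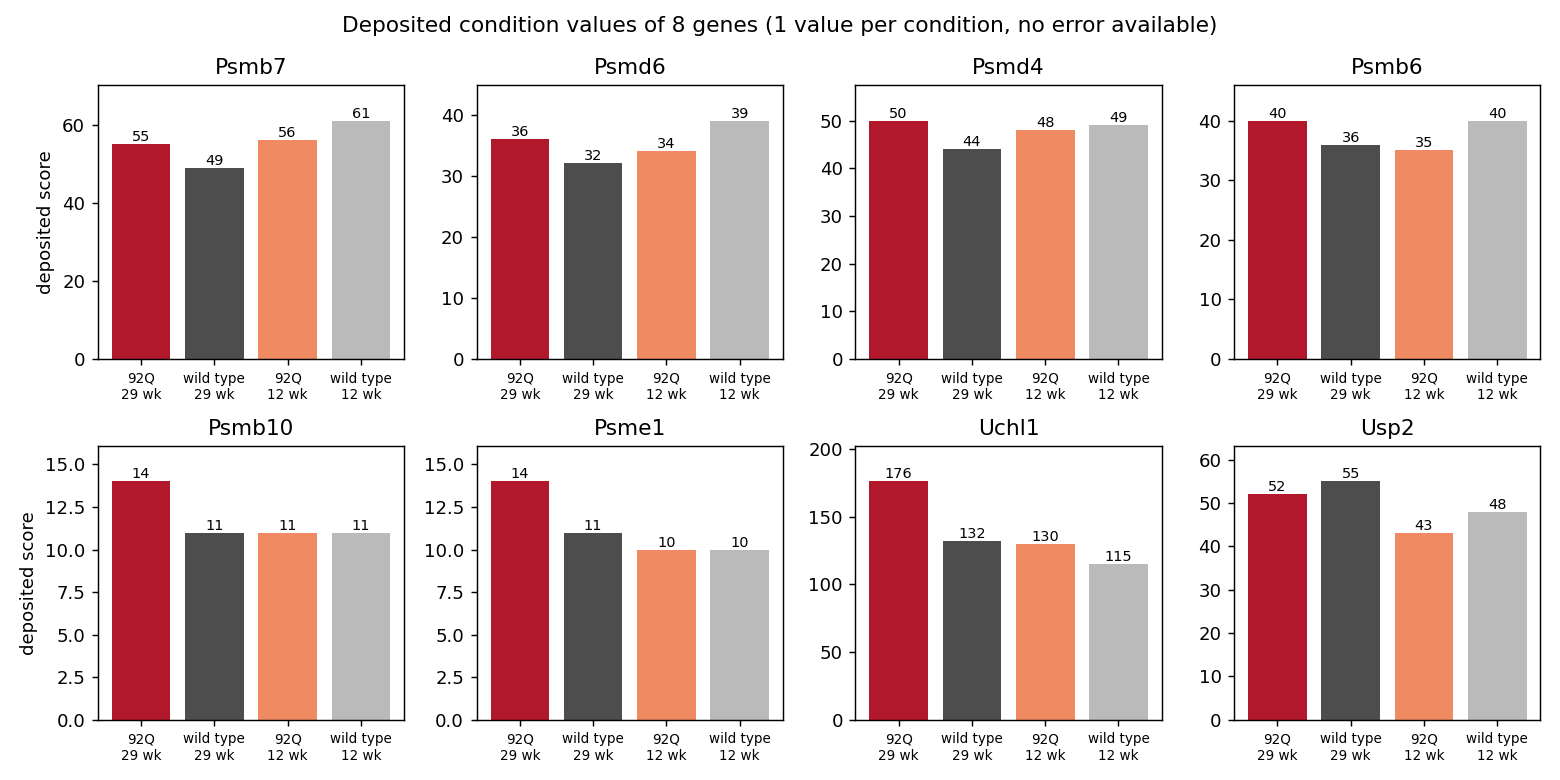
Deposited score (y axis, from 0) of 8 genes in 92Q and wild type at 29 weeks and in 92Q and wild type at 12 weeks; each bar is 1 condition value and no error is available. Psmb7, Psmd6 and Psmd4 are lowest in wild type at 29 weeks and Psmb6 in 92Q at 12 weeks, Psmb10 and Psme1 reach 14 in 29-week 92Q alone, Uchl1 is highest in 29-week 92Q (176), and Usp2 is higher at 29 than at 12 weeks in both genotypes.

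At a threshold of 1.2-fold, few of the 99 genes were apart in any comparison. In 92Q against wild type at 29 weeks 4 genes were higher, Uchl1, Psmb10, Psme1 and Psmg4, which is 4.04% against 3.78% of all genes, and 0 were lower, against 3.12%. The rounding range of the log2 ratio was 0.21 to 0.43 for Psmb10 and Psme1 and 0.14 to 0.44 for Psmg4. These ranges include ratios below 1.2-fold, a log2 ratio of 0.26, and the range of Uchl1 does not. At 12 weeks 0 were higher and 0 lower, against 0.496% and 1.54% of all genes. With age in 92Q 7 were higher, Psme1, Uchl1, Psmb10, Usp11, Usp2, Usp53 and Usp29, and 1 was lower, Usp28, against 5.53% and 4% of all genes. With age in wild type 1 was higher, Usp53, and 3 were lower, Psmb7, Psmd6 and Psmg4, against 2.45% and 3.81%. These shares of the 99 genes lie near the background. None of the 99 reached 1.5-fold in any comparison, where by genotype 0.535% of all genes were that much higher and 0.73% lower at 29 weeks, and 0.0783% and 0.17% at 12 weeks. With age 0.978% were higher and 0.483% lower in 92Q, and 0.222% and 0.144% in wild type. None of them is in the authors' deposited table of 99 selected genes.

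Other genes of the ubiquitin system were read from a list of 122 names, of which 94 had a value. In 92Q at 29 weeks 49 were above wild type and 17 below it (median 0.028), and at 12 weeks 23 were higher and 39 lower (median 0.00). These are 52.1% higher and 18.1% lower at 29 weeks, where all genes had 49.5% and 26.1%, and 24.5% and 41.5% at 12 weeks, where all genes had 32.1% and 36.7%. At 1.2-fold 1 gene of the list was lower by genotype at 29 weeks, 1.06% against 3.12% of all genes, and 0 at 12 weeks. It was Siah2, a ligase of the hypoxia response, at 11 in 92Q against 14 in wild type at 29 weeks and 12 against 14 at 12 weeks. Shfm1, the small 19S subunit also named Sem1 whose name falls outside the Psm prefixes, was likewise lowest in 29-week wild type and highest in 12-week wild type, at 41 in 92Q against 38 in wild type at 29 weeks and 44 against 48 at 12 weeks. It was 1.2-fold lower with age in wild type (2 genes of the list, 2.13% against 3.81% of all genes), as was Nedd8, the modifier carried by Ube2m, at 169 in 92Q against 162 in wild type at 29 weeks and 186 against 198 at 12 weeks. In 92Q 2 genes were 1.2-fold higher with age, 2.13% against 5.53% of all genes. Nfe2l2, a transcription factor of the oxidative stress response, was 20 at 29 weeks against 15 at 12 weeks in 92Q and 18 against 15 in wild type, and Fbxo7, a ligase adaptor that binds the proteasome inhibitor Psmf1, was 16 against 13 in 92Q and 15 against 13 in wild type.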

How the data were processed

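The 12 libraries of pooled cerebella were made with a TruSeq kit and read on a HiSeq 2000 (50 bases, single end), per the labels' protocols. The authors used Cuffdiff 1.3.0, Bowtie 0.12.7 and SAMtools 0.1.12a with build mm10, going by the submitters' processing notes, where the part of each is not described. The deposited tables hold a score whose unit is not named, as 1 whole number for each gene in each condition. All columns have the same median, so the scores were read as normalized and rounded by the authors. With the libraries of a condition combined before deposit, no limma fit and no test could be run, and the depth is unknown. Of 7684 rows 17 carried a number in place of a name and were left out.

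From the score, log2((a + 1)/(b + 1)) was computed for genes at 5 or more in one or both conditions, with pandas 2.3.3 under Python 3.11.15. The calculation was also run on scores changed by set folds without noise, which checks its arithmetic and not the spread between pools. Positions and overlaps came from GENCODE M21. Named genes were the 3 with the highest and the 3 with the lowest ratio per class and comparison, genes with a set role, and other pathway genes at 1.2-fold. Further members were named after their values were seen, to account for each class. Marker lists were read for Purkinje cells, granule neurons, microglia, astrocytes, oligodendrocytes, choroid plexus, blood and interferon response, with sex-linked and clock genes. Promoters came from RefSeq (GRCm38.p6). Members, lists and thresholds were chosen with earlier results of these data known. Alternatives were the pseudocount, the minimum, 3 scalings, the fold threshold, and restricted gene sets.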

Additional observations from a re-analysis of the deposited data

How the results depend on the processing

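No paired analysis was possible because the table holds 1 value per condition, and leaving out replicates could not be run for the same reason. The proteasome medians kept their sign in both genotype comparisons under every alternative run (pseudocount, minimum, scaling, restricted genes, without Psmb10). In wild type with age the proteasome median was -0.14 and became -0.11 under upper quartile scaling and -0.098 under quantile normalization. No other class median moved beyond the range that rounding gives it. Counts at 1.2-fold depended on the settings. For 92Q against wild type at 29 weeks the 4 higher genes became 1 with a pseudocount of 5, 14 at 1.1-fold and 0 at 1.5-fold, and 2 were lower at 1.1-fold. At 12 weeks 4 were higher and 9 lower at 1.1-fold. With age in 92Q the 7 higher became 4 under median ratio scaling, 3 with a pseudocount of 5, 11 at 1.1-fold and 0 at 1.5-fold, and the 1 lower became 0 with a pseudocount of 5, 2 at 1.1-fold and 0 at 1.5-fold. With age in wild type the 1 higher became 0 with a pseudocount of 5, with a minimum of 10 in both conditions, with genes at 10 or more in all 4 conditions, under quantile normalization and at 1.5-fold, 2 under upper quartile scaling and 11 at 1.1-fold. There the 3 lower became 1 with a pseudocount of 5 and under upper quartile scaling, 0 under quantile normalization and at 1.5-fold, and 20 at 1.1-fold. At 1.1-fold with age 1169 of all 7667 genes were higher and 912 lower in 92Q. In wild type 813 of all 7663 genes were higher and 1310 lower by as much. The genes without Psmb10, without Uchl1 and with a mean of 40 or more were chosen after seeing the data. Each value combines 3 libraries, so neither the spread between pools nor the effect of depth could be measured, and scores of 10 to 12, the highest value of 13 of the 99 genes, carry the widest rounding error.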
